A study of Mus musculus with 6 samples.

Results

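The genes described here are the collagen chain genes of the mouse, chosen by name: every row of the count table whose symbol is Col, a number, the letter a and a number. This rule, which uses no measured value, found 44 of the 55023 listed genes. They were measured by RNA sequencing in bone marrow-derived macrophages (BMDMs), primary cells grown from mouse bone marrow, in 3 groups of 2 libraries each. One group was given vehicle for 24 h, one LTα1β2 for 24 h (called LT below), and one LCL161 together with LTα1β2 for 24 h (LCL161 plus LT). LTα1β2 is the membrane form of lymphotoxin, a cytokine whose receptor is the lymphotoxin beta receptor. LCL161, a SMAC mimetic, is a small molecule that antagonises the inhibitor of apoptosis proteins. Cells given LCL161 without LT were not analysed here, so the step from LT to LCL161 plus LT is the effect of adding the compound in the presence of LT. The labels name no strain, age or dose, and do not say whether the libraries of a group came from separate mice or cultures. The p-values therefore rest on the spread from library to library, and that spread may be technical.

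Collagens are secreted or membrane-bound proteins whose α chains wind into a triple helix, and the classes differ in what those helices build. Fibrillar collagens form the fibres of connective tissue, collagen IV the network of basement membranes, collagen VI beaded filaments around cells, and the FACIT group coats fibrils. Short-chain collagens form hexagonal nets, multiplexins sit at basement membranes, and transmembrane collagens stay anchored in the cell surface. Fibroblasts and related stromal cells are the chief source of fibrillar collagen in most tissues, while macrophages are better known for taking up and degrading collagen and for releasing factors that act on stromal cells.

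The 6 libraries held 14718368 to 19049613 counts each. The labelled cell type was checked against 12 macrophage markers, of which all were present: their summed level was 28940 and 35523 CPM (counts scaled to library size) with vehicle, 35308 and 34479 with LT, and 34340 and 36234 with LCL161 plus LT. Lyz2, the macrophage lysozyme gene and the most abundant of them, stood at 25166 ± 4034 CPM (SD, n = 2) with vehicle, 24721 ± 372 with LT and 25362 ± 1014 with LCL161 plus LT, and makes up most of that sum. Singly the 12 markers moved both ways. With LT against vehicle, 7 were higher and 2 lower (12.8% and 10.6% of all genes tested). With LCL161 plus LT against LT, 3 were higher and 5 lower (10.6% and 15.1%). With LCL161 plus LT against vehicle, 5 were higher and 2 lower (18.4% and 21.1%). Below, each set of library values is given in the order replicate 1, replicate 2, CPM are scaled by TMM factors, and a gene is called higher or lower at a Benjamini-Hochberg adjusted p under 0.05 in edgeR's quasi-likelihood test over the 18812 genes that passed a filter on low counts. Of the 44 collagen genes, 42 passed that filter and Col4a6 and Col9a2 did not.

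Summed over the family, collagen transcripts were highest with vehicle, lower with LT and lowest with LCL161 plus LT. All 44 genes together made 9346 and 6119 CPM with vehicle, 2410 and 3490 with LT, and 832 and 855 with LCL161 plus LT, so that the groups did not overlap. The mean was 2.62-fold lower with LT than with vehicle, 3.50-fold lower with LCL161 plus LT than with LT, and 9.17-fold lower with LCL161 plus LT than with vehicle. As a share of all counts, collagen reads went from 1.07% and 0.670% to 0.237% and 0.343%, and to 0.0775% and 0.0744%. No test is given for such sums, because 2 libraries against 2 cannot reach an exact permutation p below 0.333. In bulk RNA, fewer cells of a type and less RNA per cell cannot be told apart.

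The collagen classes did not share this difference equally. Fibrillar collagens summed to 7047 and 4441 CPM with vehicle, 1761 and 2570 with LT, and 494 and 549 with LCL161 plus LT, 11.0-fold lower in the last group than in the first by their means. Collagen VI was 10.6-fold lower by the same measure, short-chain collagens 8.19-fold, collagen IV 6.50-fold and the FACIT class 6.22-fold. Multiplexins were the shallowest of the abundant classes: they stood at 77.4 and 83.2 CPM with vehicle, 46.9 and 39.0 with LT, and 50.4 and 55.3 with LCL161 plus LT, which is 1.52-fold lower. Transmembrane collagens, at 3.47 and 3.08 CPM with vehicle and 3.13 and 1.44 with LT, were highest with LCL161 plus LT, at 9.49 and 7.89 CPM. In shares of collagen reads, not corrected for gene length, fibrillar genes took 74.0% ± 2.0 (SD, n = 2) with vehicle, 73.4% ± 0.40 with LT and 61.8% ± 3.45 with LCL161 plus LT. Multiplexins took 1.09% ± 0.38, 1.53% ± 0.59 and 6.26% ± 0.29 in the same order, and collagen IV took 11.0% ± 1.71, 11.8% ± 0.09 and 15.2% ± 2.12.

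**Figure D1:**
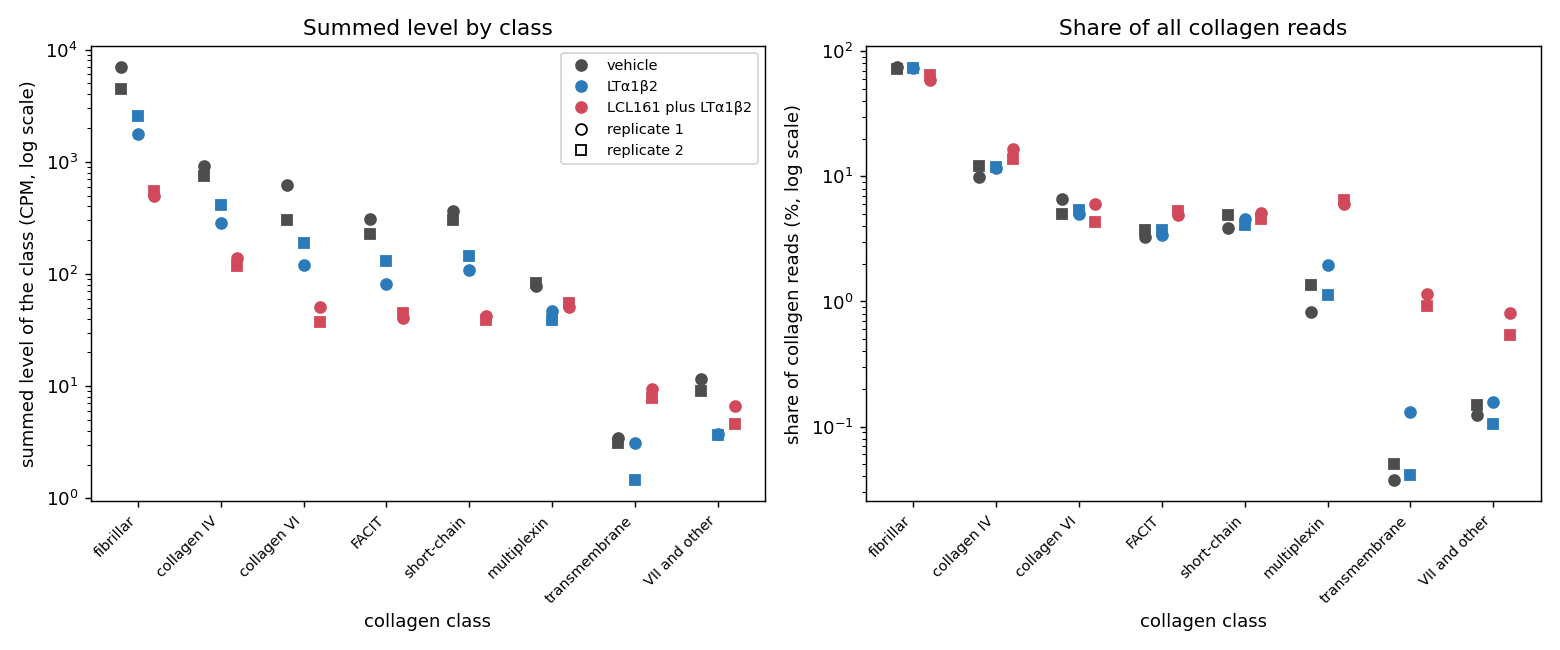
Summed level of each collagen class in CPM (left) and its share of all collagen reads in percent (right), both on log axes, with 1 point per library, coloured by group and shaped by replicate. Fibrillar collagens lie at 4441 to 7047 CPM with vehicle and 494 to 549 CPM with LCL161 plus LT, while transmembrane collagens lie highest with LCL161 plus LT.

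Gene by gene, LT lowered 20 of the 44 collagen genes against vehicle and raised 0, where 10.6% of all genes tested were called lower and 12.8% higher. The 0 holds for edgeR, DESeq2 and limma voom; at an unadjusted p under 0.05 in edgeR, 1 collagen gene was higher (Col9a3) and 22 were lower. Without LT replicate 1, the number of lower genes was 12. LCL161 plus LT against LT lowered 14 of the 44 (15.1% of all genes tested were lower) and raised 11 (10.6% higher). LCL161 plus LT against vehicle lowered 21 (21.1%) and raised 8 (18.4%). At an unadjusted p under 0.05 in edgeR, 15 were lower and 15 higher against LT, the 11 and Col24a1, Col27a1, Col6a5 and Col6a6. Against vehicle, 21 were lower and 12 higher at that limit. The 3 comparisons share libraries, so their counts are not independent of each other. Some of the genes called higher passed the filter only through LCL161 plus LT, as given below. The median log2 fold change over the collagen genes with a fit was -0.98, 0.28 and -0.53 in these comparisons, beside -0.04, 0.00 and 0.05 over all genes tested.

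The counts in both directions divided by level. Among the 20 collagen genes with a mean of at least 3 CPM over all libraries, a limit chosen after the values were seen, 19 were lower with LT than with vehicle, 14 were lower with LCL161 plus LT than with LT, and 19 were lower with LCL161 plus LT than with vehicle. Of all 12171 tested genes at that level, 14.3%, 21.4% and 27.3% were lower in those comparisons. None of the 20 was called higher, against 18.3%, 11.7% and 21% of those genes. The 20th was Col27a1, named after its values were seen. The mean over all libraries includes the values compared, so this division by level is in part built from the changes themselves. Col7a1 was above 3 CPM only with vehicle (means of 9.27, 2.47 with LT and 2.05 with LCL161 plus LT). Col27a1 was above it only with LCL161 plus LT (2.75 with vehicle, 1.80 with LT and 4.60). All 11 genes that rose from LT to LCL161 plus LT had a mean under 3 CPM, and they are described after the abundant ones.

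**Figure D2:**
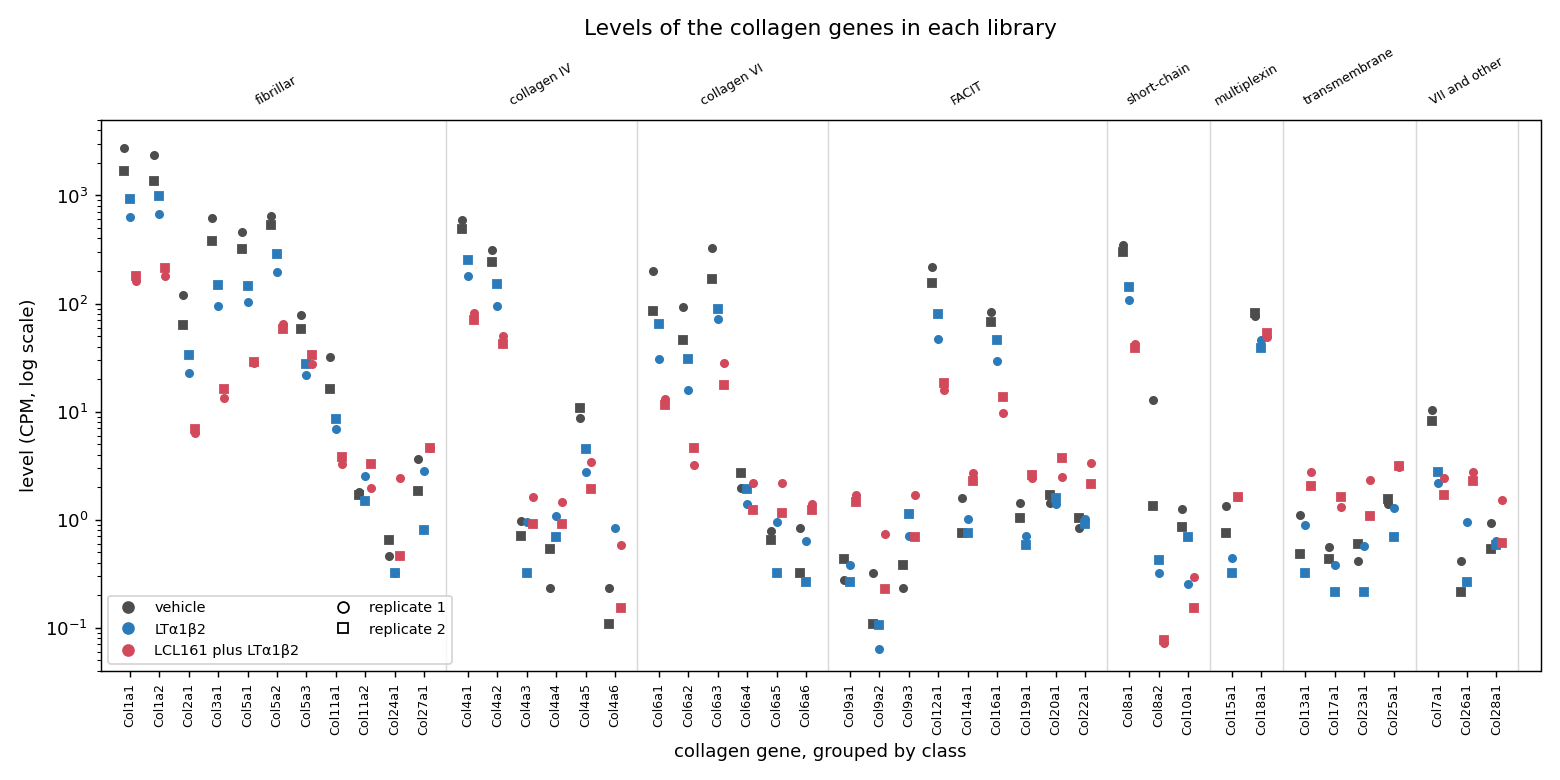
Level of each of the 44 collagen genes in CPM on a log axis, grouped by class, with 1 point per library, coloured by group and shaped by replicate; the single value of 0 (Col4a6, LT replicate 2) cannot be drawn. Col3a1 steps down from 613 and 377 CPM with vehicle to 94.8 and 148 with LT and to 13.4 and 16.3 with LCL161 plus LT, while Col5a3 stands at 22.0 and 27.7 CPM with LT and 27.6 and 33.5 with LCL161 plus LT.

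**Figure D3:**
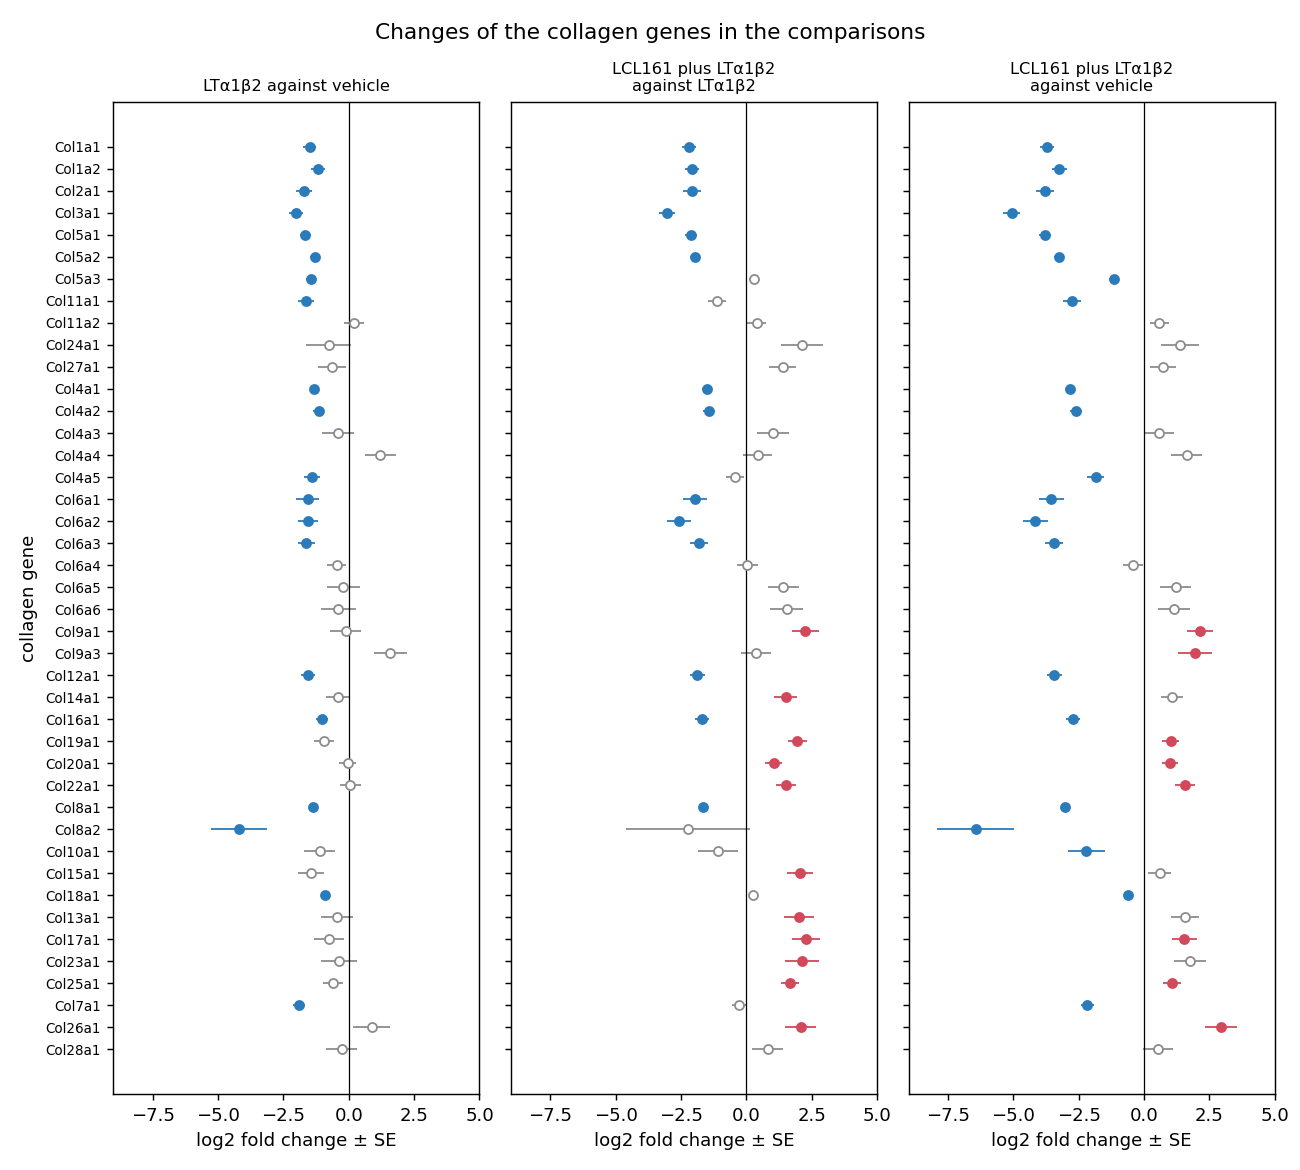
Log2 fold change of the 42 collagen genes that passed the filter, in the 3 comparisons, with bars of 1 SE. Filled blue points are called lower, filled red points higher, and open grey points are not called; the middle panel holds 14 blue and 11 red points. The bar of Col8a2 is the widest in each panel. Its reads were 274 and 25 with vehicle, 5 and 8 with LT, and 1 and 1 with LCL161 plus LT.

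Markers of smooth muscle or myofibroblasts were lower in the same comparisons as the abundant collagens, while the lists for other collagen-making cells differed among themselves. Of 8 smooth muscle or myofibroblast markers, all 8 were lower with LT than with vehicle, 5 were lower with LCL161 plus LT than with LT, and 8 against vehicle. Beside these and the marker counts below, 10.6%, 15.1% and 21.1% of all genes tested were lower and 12.8%, 10.6% and 18.4% higher. Their sum was 3723 and 3047 CPM with vehicle, 1129 and 1430 with LT, and 358 and 330 with LCL161 plus LT, and their most abundant gene was Acta2, smooth muscle actin, at 2516 ± 407 CPM (SD, n = 2) with vehicle and 253 ± 15.9 with LCL161 plus LT. Of 15 fibroblast or stromal markers, 5, 8 and 9 were lower and 1, 1 and 2 were higher in the 3 comparisons, and the sum was 1797 and 1520 CPM, 1561 and 1831 CPM, and 873 and 874 CPM. The most abundant stromal marker was Lrp1, at 947 ± 5.27 CPM with vehicle, which macrophages also express. Their sum with LT included 672 ± 0.98 CPM of Ly6a, named after its values were seen, which stood at 15.5 ± 1.59 with vehicle. Of 11 osteoblast markers, 5, 3 and 7 were lower and 0, 0 and 1 higher. Their sum was 2962 and 2129 CPM, 998 and 1545 CPM, and 633 and 668 CPM, mostly Spp1, which macrophages also make, and the osteocalcin genes Bglap and Bglap2 were at 0 reads, the first with vehicle and with LT and the second with LCL161 plus LT. Of 6 pericyte markers, 2, 1 and 2 were lower, with sums of 49.0 and 54.6, 9.95 and 11.7, and 9.56 and 10.5 CPM, so that the last 2 groups overlapped.

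Other collagen-making or matrix-bound cell types left little trace. The 10 chondrocyte markers summed to 11.0 and 10.5 CPM with vehicle, 6.38 and 5.93 with LT, and 8.17 and 4.98 with LCL161 plus LT, and Acan, the cartilage aggrecan gene, named after its values were seen, had a mean of at most 0.221 CPM in any group. The 10 endothelial markers summed to 22.7 and 20.6 CPM with vehicle, 15.8 and 17.2 with LT, and 32.3 and 27.2 with LCL161 plus LT, with 1, 0 and 0 called lower and 0, 2 and 1 higher in the 3 comparisons. The 7 epithelial markers summed to 1.30 and 1.57, 1.40 and 0.748, and 2.77 and 2.07 CPM, with 0 lower and 0, 0 and 1 higher. Both sums were highest with LCL161 plus LT, the group in which the scarce collagens described below were higher. The epithelial gene Cldn4 was at 0 reads in each library and the endothelial gene Cldn5 at 0 reads with LCL161 plus LT. The part of any of these marker changes in the collagen values was not tested.

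Collagen I is the main fibre collagen, a trimer of α1 and α2 chains encoded by Col1a1 (chr11:94936224-94953042) and Col1a2 (chr6:4504814-4541544, both GRCm38). Col1a1 stood at 2741 and 1699 CPM with vehicle, 632 and 936 with LT, and 161 and 179 with LCL161 plus LT, so the groups were fully apart. It fell 2.83-fold with LT (log2 fold change -1.50 ± 0.25 SE, edgeR adjusted p = 0.0053) and a further 4.61-fold with LCL161 plus LT against LT (-2.21 ± 0.26, adjusted p = 0.000903). Col1a2 stood at 2350 and 1371, 678 and 982, and 179 and 214 CPM, again with no overlap. Its fall with LT was 2.24-fold (-1.16 ± 0.27, edgeR adjusted p = 0.0184) and its fall from LT to LCL161 plus LT 4.22-fold (-2.08 ± 0.28, adjusted p = 0.00161). The first of these was not called without vehicle replicate 1 (-0.73) or without LT replicate 1 (-0.84). Per kilobase of exon, Col1a1 was at 338 CPM with vehicle and 25.9 with LCL161 plus LT, and Col1a2 at 150 and 15.8.

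Col3a1 (chr1:45311538-45349706) encodes the chain of collagen III, a homotrimer of elastic tissues and early scars. It stood at 613 and 377 CPM with vehicle, 94.8 and 148 with LT, and 13.4 and 16.3 with LCL161 plus LT. Each group lay far from the next. The gene fell 4.07-fold with LT (-2.02 ± 0.28, edgeR adjusted p = 0.00201) and 8.21-fold from LT to LCL161 plus LT (-3.04 ± 0.30, adjusted p = 0.000431). Against vehicle, the fall with LCL161 plus LT was 33.4-fold (-5.06 ± 0.32, adjusted p = 1.55e-05). An exon of Gm47302 overlaps Col3a1 on the same strand, so the table's split of reads between these genes is uncertain.

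Collagen V starts and sets the width of collagen I fibrils, and 2 of its 3 genes fell in both steps. Col5a1 (chr2:27886425-28039514) stood at 463 and 322 CPM with vehicle, 104 and 144 with LT, and 28.2 and 28.9 with LCL161 plus LT. It fell 3.16-fold with LT (-1.66 ± 0.20, edgeR adjusted p = 0.0013) and 4.34-fold from there (-2.12 ± 0.22, adjusted p = 0.000467). Col5a2 (chr1:45374321-45503282), its partner chain, stood at 645 and 529, 195 and 287, and 65.4 and 57.9 CPM. Its falls were 2.44-fold (-1.29 ± 0.19, edgeR adjusted p = 0.00287) and 3.91-fold (-1.97 ± 0.20, adjusted p = 0.00043). Col5a3 (chr9:20770050-20815067) stood at 78.0 and 58.6 CPM with vehicle and 22.0 and 27.7 with LT, a fall of 2.75-fold (-1.46 ± 0.19, edgeR adjusted p = 0.00146). With LCL161 plus LT it stood at 27.6 and 33.5 CPM, overlapping LT, and was not called against it (0.30 ± 0.19, edgeR adjusted p = 0.272), while it was 2.24-fold lower than with vehicle (-1.16 ± 0.18, adjusted p = 0.0018).

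The bases just before the start sites of Col3a1, the steepest fall, and of Col5a1 and Col5a3, of which the first was called in the second step and the other was not, are shown as examples from the fibrillar genes that fell with LT. Each is the 250 bases up to the annotated start, read 5′ to 3′ on the gene's strand from RefSeq on GRCm38.p6, with capitals marking the motifs TATAAA and CCAAT and the motif GGGCGG, on either strand. Col3a1 is chr1:45311288-45311537 on the plus strand, Col5a1 chr2:27886175-27886424 on the plus strand, and Col5a3 chr9:20815068-20815317 on the minus strand.
Col3a1: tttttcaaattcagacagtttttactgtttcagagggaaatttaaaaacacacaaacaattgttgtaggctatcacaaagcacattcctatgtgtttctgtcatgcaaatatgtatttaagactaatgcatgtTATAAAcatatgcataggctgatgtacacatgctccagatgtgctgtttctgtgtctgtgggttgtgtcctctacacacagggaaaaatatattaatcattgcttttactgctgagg
Col5a1: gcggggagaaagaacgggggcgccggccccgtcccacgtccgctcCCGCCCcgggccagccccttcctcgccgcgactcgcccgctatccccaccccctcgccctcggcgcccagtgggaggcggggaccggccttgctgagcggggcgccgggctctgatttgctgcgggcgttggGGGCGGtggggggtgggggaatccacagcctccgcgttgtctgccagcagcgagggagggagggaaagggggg
Col5a3: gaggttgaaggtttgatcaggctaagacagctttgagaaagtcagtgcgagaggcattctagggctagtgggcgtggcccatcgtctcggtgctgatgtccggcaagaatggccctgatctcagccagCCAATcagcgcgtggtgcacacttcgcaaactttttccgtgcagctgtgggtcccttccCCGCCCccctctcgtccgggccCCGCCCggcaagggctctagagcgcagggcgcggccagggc
The Col3a1 stretch is 35.2% G or C, the lowest of the collagen genes with an entry, and holds TATAAA 117 to 112 bases before the start. The Col5a1 stretch is 76.4% G or C, the highest of them, and holds GGGCGG once on each strand. The Col5a3 stretch is 62.8% G or C, with CCAAT 122 to 118 bases before the start and GGGCGG at 2 places on the other strand.

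Among the 35 collagen genes with a RefSeq promoter entry, searched over 250 bases on both strands with overlapping matches allowed, CCAAT was found in 37.1% (37.5% of 27025 genes of any kind), TATAAA in 14.3% (14.3%) and GGGCGG in 60.0% (35.4%). The median G or C content was 59.6% for these collagen genes and 52.4% for genes of any kind. Its part in the share with GGGCGG was not tested. TGACTCA, the AP-1 element, was found in 1 gene, Col6a1, or 2.86% (5.16%). The NF-kB consensus was found in 4 genes, Col27a1, Col6a4, Col9a1 and Col9a2, or 11.4% (4.46%), and the CArG box, the serum response element, in Col6a4 alone, or 2.86% (1.62%). None of the 10 genes with an entry that fell from LT to LCL161 plus LT held the NF-kB consensus or the CArG box in this window. Of the 8 with an entry that rose, 1 (Col9a1) held the NF-kB consensus and 0 the CArG box. At shares of 4.46% and 1.62% among genes of any kind, 0 of 10 says nothing about these members. A match is a run of letters and not a binding site.

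Collagens II and XI are the fibrillar collagens of cartilage, and their abundant chains followed collagen I. Col2a1 (chr15:97975602-98004695) stood at 119 and 62.9 CPM with vehicle, 22.6 and 33.3 with LT, and 6.35 and 6.97 with LCL161 plus LT. It fell 3.26-fold with LT (-1.70 ± 0.30, edgeR adjusted p = 0.00644) and 4.20-fold from LT to LCL161 plus LT (-2.07 ± 0.34, adjusted p = 0.0042). Col11a1 stood at 31.8 and 16.3, 6.89 and 8.50, and 3.28 and 3.83 CPM. Its fall with LT was 3.12-fold (-1.64 ± 0.30, edgeR adjusted p = 0.00786), not called without LT replicate 1 (-1.42), and its second step, though the libraries did not overlap, was not called (-1.12 ± 0.35, edgeR adjusted p = 0.0541). That step passed under 6 of 14 alternatives, among them DESeq2 (-1.22). The last 3 fibrillar genes were not called in any comparison. Col11a2 stood at 1.81 and 1.68, 2.55 and 1.5, and 1.97 and 3.29 CPM. Col24a1 stood at 0.463 and 0.649, 0.319 and 0.321, and 2.41 and 0.460 CPM. Col27a1 stood at 3.66 and 1.84, 2.81 and 0.802, and 4.60 and 4.60 CPM. In Col11a2 and Col24a1 some of the groups overlapped, and the LCL161 plus LT replicates lay far apart. In Col27a1 vehicle and LT overlapped, while both LCL161 plus LT libraries lay above every other library (1.38 ± 0.53 over LT, edgeR adjusted p = 0.0946). In all, 8, 6 and 8 of 11 fibrillar genes were lower and 0 higher in the 3 comparisons.

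In collagen IV, the basement membrane network, the widespread α1 and α2 chains fell in both steps and the other chains were scarce. Col4a1 (chr8:11198423-11312826) stood at 595 and 491 CPM with vehicle, 181 and 255 with LT, and 81.9 and 70.9 with LCL161 plus LT, with no overlap. It fell 2.49-fold with LT (-1.31 ± 0.18, edgeR adjusted p = 0.00201) and 2.86-fold from LT to LCL161 plus LT (-1.51 ± 0.18, adjusted p = 0.000985). Col4a2 (chr8:11312805-11449287) stood at 311 and 245, 95.9 and 153, and 49.9 and 42.1 CPM. It fell 2.23-fold (-1.16 ± 0.22, edgeR adjusted p = 0.00888; not called without vehicle replicate 1, -0.98) and 2.71-fold (-1.44 ± 0.23, adjusted p = 0.00359). The 2 genes are transcribed away from each other and share a promoter region, their annotated starts lying 21 bases apart. The 30 bases at chr8:11312801-11312830 (plus strand, RefSeq on GRCm38.p6) show this, the capitals running from the start of Col4a2 to that of Col4a1.
Col4a1 and Col4a2 starts: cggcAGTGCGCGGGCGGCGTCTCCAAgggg
First exons of the genes overlap on opposite strands, and whether strand was used in counting is not given in the sources used here.

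Col4a5, on the X chromosome, stood at 8.66 and 10.8 CPM with vehicle, 2.74 and 4.49 with LT, and 3.43 and 1.91 with LCL161 plus LT. It fell 2.65-fold with LT (-1.41 ± 0.30, edgeR adjusted p = 0.0137), a call lost without vehicle replicate 2 (-1.25) or LT replicate 1 (-1.03), and its last 2 groups overlapped (-0.44 ± 0.35, edgeR adjusted p = 0.371). Col4a3 stood at 0.972 and 0.703, 0.957 and 0.321, and 1.61 and 0.919 CPM, and was not called. Col4a4, its divergent neighbour on chromosome 1, stood at 0.231 and 0.540, 1.08 and 0.695, and 1.46 and 0.919 CPM, and was not called either. Col4a6, which did not pass the filter, stood at 0 to 0.830 CPM.

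In collagen VI, a heterotrimer of α1, α2 and a larger α3 chain that links cells to their matrix, the 3 classical chains fell together. Col6a1 (chr10:76708792-76726168) stood at 198 and 85.9 CPM with vehicle, 30.8 and 64.1 with LT, and 13.0 and 11.4 with LCL161 plus LT. The 2 vehicle libraries differ more from each other here than those of collagen IV did. The falls were 2.99-fold (-1.58 ± 0.43, edgeR adjusted p = 0.0327) and 3.90-fold (-1.96 ± 0.46, adjusted p = 0.0192). Col6a2, its neighbour on chromosome 10, stood at 92.4 and 46.4, 15.8 and 31.0, and 3.21 and 4.60 CPM. It fell 2.96-fold (-1.57 ± 0.38, edgeR adjusted p = 0.0234) and 6.01-fold (-2.59 ± 0.46, adjusted p = 0.00604). Col6a3, on chromosome 1, stood at 328 and 169, 71.7 and 89.9, and 28.3 and 17.5 CPM, and fell 3.08-fold (-1.62 ± 0.32, edgeR adjusted p = 0.0106) and 3.53-fold (-1.82 ± 0.34, adjusted p = 0.00735).

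Several calls of this class were lost when 1 library was left out or the method was changed. The first-step call of Col6a1 was lost without vehicle replicate 1 (-0.86), without LT replicate 1 (-1.07), with the replicate number as a block (-1.53) and in DESeq2 (-1.58). That of Col6a2 was lost without vehicle replicate 1 (-0.99) or LT replicate 1 (-1.08), and that of Col6a3 without LT replicate 1 (-1.39). In the second step, Col6a1 was not called without LT replicate 2 (-1.37), LCL161 plus LT replicate 1 (-2.08) or LCL161 plus LT replicate 2 (-1.94). The chains that can take the place of α3, clustered on chromosome 9, were scarce and not called. Col6a4 stood at 1.94 and 2.7, 1.40 and 1.92, and 2.19 and 1.23 CPM. Col6a5 stood at 0.787 and 0.649, 0.957 and 0.321, and 2.19 and 1.15 CPM. Col6a6 stood at 0.833 and 0.324, 0.638 and 0.267, and 1.39 and 1.23 CPM. Their levels lay within a few CPM of 0 in each library.

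The FACIT collagens, which bind to fibril surfaces and do not form fibres themselves, divided into 2 abundant genes that fell and scarce genes that did not. Col12a1 stood at 217 and 154 CPM with vehicle, 46.9 and 79.3 with LT, and 16.0 and 18.5 with LCL161 plus LT, with no overlap. It fell 2.94-fold (-1.55 ± 0.26, edgeR adjusted p = 0.00478) and 3.66-fold (-1.87 ± 0.27, adjusted p = 0.00236). Col16a1 stood at 84.4 and 67.0, 29.1 and 45.8, and 9.63 and 13.6 CPM. It fell 2.02-fold (-1.01 ± 0.24, edgeR adjusted p = 0.0196; not called without vehicle replicate 1, -0.84, or LT replicate 1, -0.65) and 3.24-fold (-1.69 ± 0.26, adjusted p = 0.00296).

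Short-chain collagens VIII and X form nets under endothelia and in growth plates. Col8a1 (chr16:57624258-57754737) stood at 347 and 301 CPM with vehicle, 109 and 143 with LT, and 41.9 and 38.6 with LCL161 plus LT, with close replicates. It fell 2.57-fold (-1.36 ± 0.15, edgeR adjusted p = 0.000663) and 3.13-fold (-1.64 ± 0.15, adjusted p = 0.00032). Col8a2, its partner chain, stood at 12.7 and 1.35 CPM with vehicle, 0.319 and 0.428 with LT, and 0.0730 and 0.0766 with LCL161 plus LT. The vehicle value rests on 1 library: the reads were 274, 25, 5, 8, 1 and 1 in the same order. Its fall with LT was called (-4.21 ± 1.06, edgeR adjusted p = 0.0261) but not without vehicle replicate 1 (-1.83), LT replicate 1 (-3.95) or LT replicate 2 (-4.45), and not by limma voom (-3.47). Of the 13 reads with LT and 2 with LCL161 plus LT, scaled by library size, the ratio was 5.06 with a 95% counting interval of 1.15 to 46.2. Of the 299 with vehicle and 2 with LCL161 plus LT, it was 99.8 with an interval of 27.4 to 828, and most of those 299 came from vehicle replicate 1. Col10a1 stood at 1.25 and 0.865, 0.255 and 0.695, and 0.292 and 0.153 CPM, and was called lower only in LCL161 plus LT against vehicle (-2.21 ± 0.70, edgeR adjusted p = 0.0392), a call lost under 7 of 13 alternatives, among them DESeq2 (-2.36). Its exons overlap those of Nt5dc1 on the other strand.

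Some genes that fell with LT were not called in the second step. Col18a1, the multiplexin whose end fragment is endostatin, stood at 76.1 and 82.4 CPM with vehicle, 46.5 and 38.7 with LT, and 48.8 and 53.7 with LCL161 plus LT. It fell 1.86-fold with LT (-0.90 ± 0.12, edgeR adjusted p = 0.00208), was not called in the second step (0.27 ± 0.12, adjusted p = 0.146), and stayed 1.55-fold below vehicle (-0.63 ± 0.12, adjusted p = 0.00516). Col7a1, the anchoring fibril collagen that fixes epidermis to dermis, stood at 10.3 and 8.27, 2.17 and 2.78, and 2.41 and 1.68 CPM. It fell 3.72-fold (-1.90 ± 0.24, edgeR adjusted p = 0.00136) and its last 2 groups overlapped (-0.28 ± 0.28, adjusted p = 0.49). The microRNA gene Mir711 lies on an exon of Col7a1 on the same strand. Col5a3, Col4a5, Col11a1 and Col8a2, described above, shared this set of calls.

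The 11 genes that rose from LT to LCL161 plus LT were 5 FACIT genes, all 4 transmembrane genes, Col15a1 and Col26a1, each with a mean of 0.749 to 2.06 CPM over the 6 libraries. Col9a1, a cartilage fibril coat, stood at 0.278 and 0.432 CPM with vehicle, 0.383 and 0.267 with LT, and 1.68 and 1.46 with LCL161 plus LT (4.78-fold over LT, 2.26 ± 0.52, edgeR adjusted p = 0.0175). Col19a1, its neighbour on chromosome 1, stood at 1.44 and 1.03, 0.702 and 0.588, and 2.41 and 2.60 CPM (3.87-fold, 1.95 ± 0.37, edgeR adjusted p = 0.00808). Col14a1 stood at 1.57 and 0.757, 1.02 and 0.748, and 2.7 and 2.30 CPM (2.83-fold, 1.5 ± 0.44, edgeR adjusted p = 0.0412). In these 3 genes both LCL161 plus LT libraries lay above every other library. Col20a1 stood at 1.44 and 1.68, 1.40 and 1.60, and 2.48 and 3.75 CPM (2.06-fold, 1.04 ± 0.32, edgeR adjusted p = 0.0491), and BX649560.1 overlaps its exons on the same strand. Col22a1 stood at 0.833 and 1.03, 1.02 and 0.909, and 3.36 and 2.14 CPM (2.85-fold, 1.51 ± 0.37, edgeR adjusted p = 0.0229). Here too the last group was the highest.

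Transmembrane collagens keep a single membrane-spanning segment and can be shed from the cell surface. Col13a1, found at cell junctions and the neuromuscular synapse, stood at 1.11 and 0.486 CPM with vehicle, 0.893 and 0.321 with LT, and 2.77 and 2.07 with LCL161 plus LT (4.05-fold over LT, 2.02 ± 0.58, edgeR adjusted p = 0.0394). Col17a1, a hemidesmosome component of the epidermis, stood at 0.556 and 0.432, 0.383 and 0.214, and 1.31 and 1.61 CPM (4.87-fold, 2.29 ± 0.53, edgeR adjusted p = 0.0186). Col23a1 stood at 0.417 and 0.595, 0.574 and 0.214, and 2.33 and 1.07 CPM (4.38-fold, 2.13 ± 0.64, edgeR adjusted p = 0.0465). These and the next 3 genes were again highest in both LCL161 plus LT libraries. Col25a1, a gene of neurons, stood at 1.39 and 1.57, 1.28 and 0.695, and 3.06 and 3.14 CPM (3.18-fold, 1.67 ± 0.36, edgeR adjusted p = 0.0134). Col15a1, the other multiplexin, stood at 1.34 and 0.757, 0.447 and 0.321, and 1.61 and 1.61 CPM (4.16-fold, 2.06 ± 0.50, edgeR adjusted p = 0.0216). Col26a1 stood at 0.417 and 0.216, 0.957 and 0.267, and 2.77 and 2.30 CPM (4.22-fold, 2.08 ± 0.59, edgeR adjusted p = 0.0365).

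Against vehicle, LCL161 plus LT raised 8 of the 44 genes, a share close to the 18.4% of all genes tested that were higher. Col9a1 (2.13 ± 0.50, edgeR adjusted p = 0.0122), Col22a1 (1.56 ± 0.37, adjusted p = 0.0122), Col17a1 (1.54 ± 0.49, adjusted p = 0.0393), Col25a1 (1.07 ± 0.34, adjusted p = 0.0383), Col19a1 (1.01 ± 0.34, adjusted p = 0.0472), Col20a1 (1.0 ± 0.31, adjusted p = 0.0381) and Col26a1 (2.95 ± 0.62, adjusted p = 0.00725) were 7 of those just described. The eighth, Col9a3, stood at 0.231 and 0.378 CPM with vehicle, 0.702 and 1.12 with LT, and 1.68 and 0.689 with LCL161 plus LT (1.95 ± 0.64, edgeR adjusted p = 0.044), with LT and LCL161 plus LT overlapping. The calls of Col9a3 (1.95) and Col19a1 (1.03) against vehicle were lost with the replicate number as a block, and each was lost under 9 alternatives in all. Col28a1 stood at 0.926 and 0.540, 0.638 and 0.588, and 1.53 and 0.613 CPM and was not called. Col9a2, which did not pass the filter, had 9 reads with vehicle, 3 with LT and 13 with LCL161 plus LT, a ratio of 5.57 between the last 2 groups with a 95% counting interval of 1.53 to 30.5.

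These rises were small in reads, and other scarce genes were higher in the same libraries. The 11 genes together had 234 and 166 reads with vehicle, 142 and 115 with LT, and 364 and 315 with LCL161 plus LT. Of the 22 tested collagen genes with a mean under 3 CPM, 11 (50%) were higher with LCL161 plus LT than with LT, with a median log2 fold change of 1.51. Of all 6641 tested genes under that limit, 8.52% were higher in the same comparison and the median was 0.54. Of the 847 that also span at least 100000 bases of genome, a limit chosen after the values were seen, 13.1% were higher in that comparison and the median was 0.95. Col9a1, Col17a1, Col23a1 and Col26a1, which are among the 11, passed the filter on low counts only through LCL161 plus LT, where they were high. The count of 11 is therefore not independent of the filter. The 6641 genes passed the same filter, and its part in these shares was not tested. In LT against vehicle, 0 of the 22 were higher and 1 was lower (2.67% and 3.76% of the 6641). In LCL161 plus LT against vehicle, 8 were higher and 2 lower (13.6% and 9.68%). The mean level of those 847 genes was 1.38 and 1.23 CPM with vehicle, 1.22 and 0.920 with LT, and 1.90 and 1.51 with LCL161 plus LT. The 11 collagen genes span 31829 to 468377 bases with a median of 141451, and the 14 that fell span 16819 to 153090 with a median of 64746.5. The LCL161 plus LT libraries also listed more genes with reads (40245 and 38062) than the LT libraries (36414 and 33631). The part of these features in the rises was not tested. The count of 11 was 0 without LT replicate 2, 7 without LT replicate 1, 3 and 5 without LCL161 plus LT replicate 1 and 2, and 2 in DESeq2, and the count of 8 against vehicle was 1 without either vehicle replicate, 2 and 5 without LCL161 plus LT replicate 1 and 2, 1 in DESeq2 and 3 with total counts as the scale.

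Chains that share a trimer were next compared as ratios of reads within each library, where library scaling cancels. Col1a1 over Col1a2 was 1.17 and 1.24 with vehicle, 0.93 and 0.95 with LT, and 0.90 and 0.83 with LCL161 plus LT, lowest in the last group. Col3a1 over Col1a1, which are chains of different collagens in the same fibres, went from 0.22 and 0.22 to 0.15 and 0.16 and to 0.08 and 0.09. Col5a1 over Col5a2 was 0.72 and 0.61, 0.53 and 0.50, and 0.43 and 0.50. In these 3 pairs the groups did not overlap, by a narrow gap in the last. Col4a1 over Col4a2 was 1.92 and 2.00, 1.89 and 1.67, and 1.64 and 1.68. Both vehicle ratios lay above those of all other libraries, and LT and LCL161 plus LT overlapped. The span was 1.64 to 2.00, while Col4a1 was 7.10-fold and Col4a2 6.03-fold lower with LCL161 plus LT than with vehicle. Col6a1 over Col6a2 was 2.14 and 1.85 with vehicle, 1.96 and 2.07 with LT, and 4.05 and 2.48 with LCL161 plus LT. The first of the last pair rests on 178 and 44 reads and has a 95% exact counting interval of 2.89 to 5.76. Col6a3 over Col6a1 ranged from 1.40 to 2.33 with the groups overlapping. The ratios have no test, and the intervals cover counting error only, since reads without molecular identifiers are not independent molecules.

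**Figure D4:**
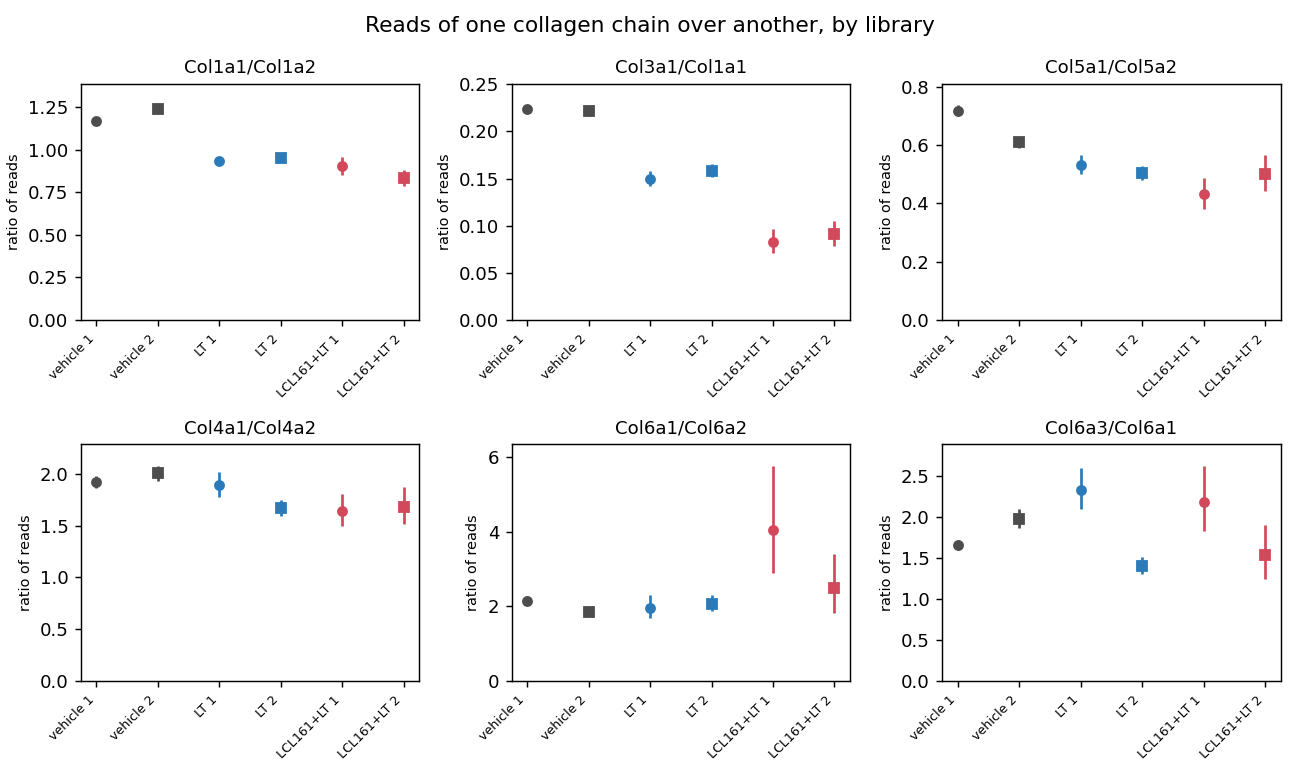
Ratio of the reads of 1 collagen gene to those of another in each of the 6 libraries, on linear axes from 0, coloured by group and shaped by replicate, with 95% exact counting intervals. Col3a1 over Col1a1 steps down from 0.22 with vehicle to 0.08 and 0.09 with LCL161 plus LT. Col4a1 over Col4a2 lies between 1.64 and 2.00 and is highest in both vehicle libraries.

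Genes that make collagen fit for secretion moved with the abundant chains in part. Of 21 hydroxylation, folding and secretion genes, 9 were lower and 2 higher with LT than with vehicle (10.6% and 12.8% of all genes tested). With LCL161 plus LT, 11 were lower and 3 higher than with LT (15.1% and 10.6%), and 11 lower and 0 higher than with vehicle (21.1% and 18.4%). Serpinh1, the collagen chaperone HSP47, went from 1321 ± 217 CPM (SD, n = 2) to 484 ± 52.9 and 152 ± 0.92, a fall of log2 -1.45 ± 0.14 (edgeR adjusted p = 0.000358) and then -1.67 ± 0.14 (adjusted p = 0.000227). Plod2, the lysyl hydroxylase of collagen telopeptides, Fkbp10, a prolyl isomerase, and P3h4, a partner of the prolyl hydroxylases, fell in both steps as well. Fkbp10 went from 295 ± 37.5 to 110 ± 22.4 and 29.0 ± 3.69 CPM, and P3h4 from 48.0 ± 5.57 to 19.3 ± 2.08 and 5.08 ± 0.07. The general secretory genes P4hb and Ppib, which serve many proteins, were named after their values were seen. P4hb stood at 903 ± 4.50, 801 ± 56.6 and 701 ± 33.7 CPM, and Ppib at 96.5 ± 3.52, 97.5 ± 6.34 and 89.3 ± 2.02 CPM. Neither was called in either step. Against vehicle, P4hb was lower with LCL161 plus LT (-0.37 ± 0.10, edgeR adjusted p = 0.0214), and Ppib was not called.

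Trimming and crosslinking genes act on collagen outside the cell, and 6, 11 and 11 of 13 were lower in the 3 comparisons, with 0 higher. Over all genes tested, 10.6%, 15.1% and 21.1% were lower and 12.8%, 10.6% and 18.4% higher. Lox, the lysyl oxidase that crosslinks fibrils, went from 1465 ± 332 to 443 ± 44.5 and 141 ± 4.17 CPM (SD, n = 2), falling by 1.73 ± 0.16 on the log2 scale with LT (edgeR adjusted p = 0.000336) and by 1.66 ± 0.16 in the second step (adjusted p = 0.00042). Pcolce, an enhancer of propeptide removal, went from 98.5 ± 15.4 to 37.4 ± 6.48 and 7.83 ± 0.79 CPM, and Pcolce2 from 19.8 ± 1.12 to 6.27 ± 0.74 and 2.20 ± 0.51. Loxl1, a lysyl oxidase of elastic fibres, fell less with LT, from 85.0 ± 8.80 to 53.4 ± 9.38 CPM, and then to 11.4 ± 2.03. All 4 were lower in both steps.

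Among collagen receptors and collagen-degrading proteases, lower calls outnumbered higher ones in each comparison. Of 12 receptors, 5, 5 and 7 were lower (10.6%, 15.1% and 21.1% of all genes tested) and 1, 0 and 2 higher (12.8%, 10.6% and 18.4%). Mrc1, a macrophage mannose receptor that also takes up collagen, went from 119 ± 14.4 to 29.4 ± 1.63 and 5.22 ± 0.88 CPM (SD, n = 2), a fall in both steps (-2.02 ± 0.14, edgeR adjusted p = 6.56e-05, and -2.49 ± 0.16, adjusted p = 8.71e-05). Ddr1, a collagen-binding receptor kinase, went from 54.2 ± 4.23 to 19.7 ± 2.81 and 6.53 ± 0.46 CPM, and Itga11, a collagen integrin of fibroblasts, from 177 ± 62.3 to 56.7 ± 13.8 and 6.13 ± 0.0018 CPM. Lair1, the inhibitory collagen receptor of leukocytes, rose instead, from 84.2 ± 7.76 to 312 ± 24.0 CPM with LT (1.89 ± 0.11, edgeR adjusted p = 2.84e-05), and stood at 262 ± 4.67 with LCL161 plus LT. Of 10 proteases, 5, 4 and 6 were lower and 0, 2 and 1 higher. The summed level of the proteases was 1774 and 1795 CPM with vehicle, 1190 and 1224 with LT, and 1332 and 1454 with LCL161 plus LT. That sum was thus higher with LCL161 plus LT than with LT, though more of the genes were called lower. Mmp14, a membrane-bound collagenase, stood at 379 ± 6.22 and 365 ± 36.7 CPM with vehicle and LT and rose to 820 ± 91.4 with LCL161 plus LT (1.17 ± 0.12 over LT, edgeR adjusted p = 0.000467). The lysosomal cathepsins Ctsl and Ctsk and the gelatinase Mmp2 fell in both steps, Ctsl from 880 ± 43.1 to 496 ± 34.9 and 295 ± 10.9 CPM.

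Other matrix genes fell alongside the collagens: 17, 21 and 22 of 30 were lower in the 3 comparisons and 0 were higher. The shares over all genes tested were 10.6%, 15.1% and 21.1% lower and 12.8%, 10.6% and 18.4% higher. Sparc, a collagen-binding glycoprotein, went from 1619 ± 234 to 637 ± 128 and 180 ± 5.72 CPM (SD, n = 2). Postn, periostin, went from 472 ± 63.0 to 183 ± 22.9 and 38.6 ± 7.13 CPM, Lamb1, a laminin chain of basement membranes, from 175 ± 6.34 to 76.5 ± 16.2 and 20.3 ± 1.47, and Nid1, nidogen, which links laminin to collagen IV, from 434 ± 59.8 to 202 ± 35.3 and 60.6 ± 2.42. These 4 genes were lower in both steps. The fibroblast proteoglycans Dcn and Lum, named after their values were seen, stood under 1 CPM in each group, Lum not passing the filter.

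**Figure D5:**
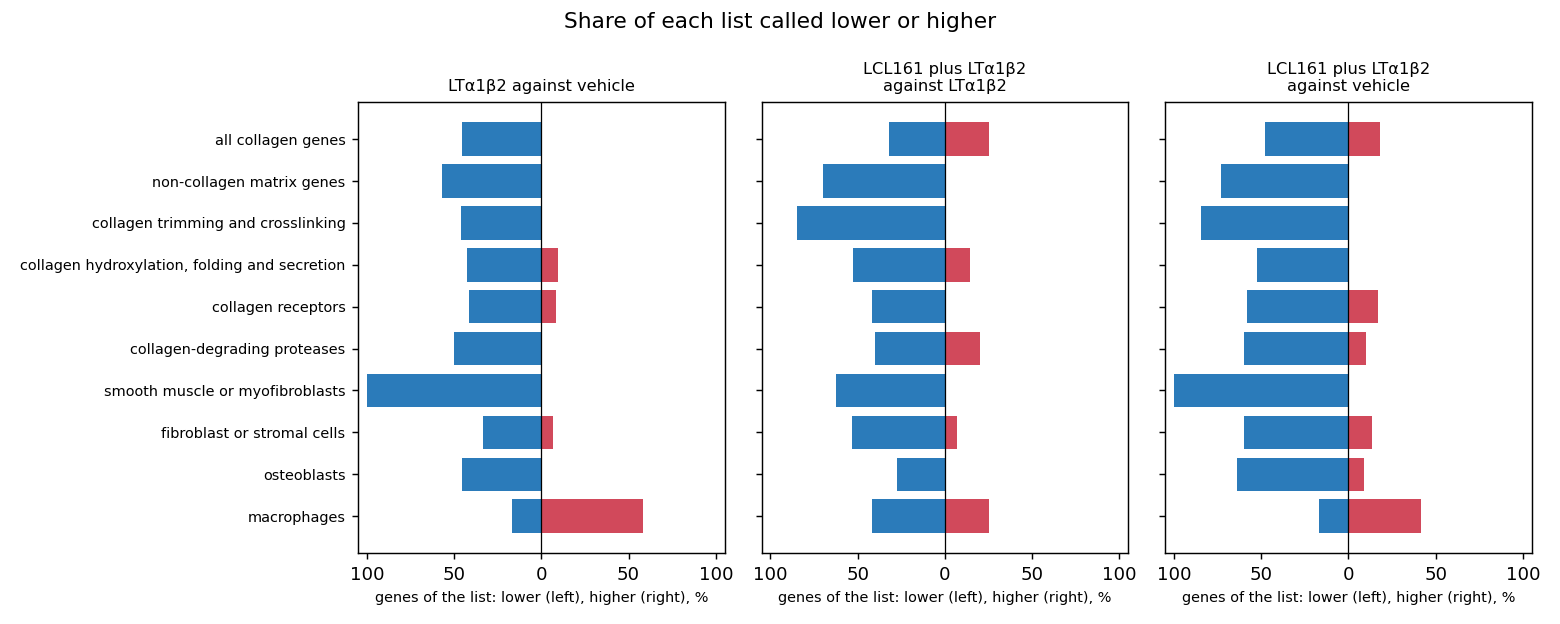
Share of the genes of each list called lower (blue, to the left) or higher (red, to the right) in the 3 comparisons, in percent of all genes of the list, tested or not. The collagen row shows 20, 14 and 21 of 44 genes lower and 0, 11 and 8 higher, while trimming and crosslinking, other matrix and smooth muscle lists hold no higher calls.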

How the data were processed

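BMDM RNA was sequenced in 6 libraries, 2 a group, grouped by title. As deposited, the values are expected counts per gene without normalisation, of which 66.6% of the non-zero ones are whole. STAR 2.7.3a, the build GRCm38 and DESeq2 1.26.0 are named, without their order, in the submitters' processing notes, with counting program, annotation and strand setting not given in the sources used here.

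For the tests, values were rounded and fitted in edgeR 4.0.16 (R 4.3.3; filterByExpr, minimum 10 reads; TMM; group means over all 6 libraries; glmQLFit and glmQLFTest, two-sided), with Benjamini-Hochberg adjustment over 18812 genes (99.5% of counts in the library where that share was lowest) and calls at an adjusted p under 0.05. The standard error of a log2 fold change is its size over the square root of F. The procedure was tested on simulated data. A floor of 3 reads was 0.139 to 0.230 CPM. Genes were placed on GRCm38 with GENCODE M21 by symbol, and levels per kilobase use the length of all annotated exons.

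Replicates differed by more than counting error (chi-square per degree of freedom 16.0, 8.34 and 12.1). Over the 42 tested collagen genes, the median log2 difference of replicate 1 from replicate 2 was 0.42 with vehicle, -0.31 with LT and 0.17 with LCL161 plus LT. Over all genes tested it was 0.01, 0.00 and -0.02. Calls of different collagen genes are therefore not independent of each other. Each collagen gene called in any comparison or reaching a mean of 1 CPM in a group is given by library. From each other list, the 4 genes of smallest p are named, and from marker lists the most abundant and those at 0, beside genes marked as chosen later. The members and lists were chosen with earlier results of these data known. Alternatives were other scaling factors, other filters, DESeq2 1.42.0, limma 3.58.1 (voom), only the groups compared, a replicate block and leaving out each library.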

Additional observations from a re-analysis of the deposited data

How the results depend on the processing

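With 2 libraries a group, 1 library can decide a call. The number of collagen genes lower with LT than with vehicle (20) ranged from 12 to 20 when each library was left out, and the number higher was 0 under each alternative. Lower genes in LCL161 plus LT against LT (14) ranged from 13 to 15 and against vehicle (21) from 20 to 21 in those fits. The higher genes moved more: against LT (11) from 0 to 8 when libraries were left out and 2 in DESeq2; against vehicle (8) from 1 to 9, with 1 in DESeq2 and 3 with total counts as the scale. Of the genes called in LCL161 plus LT against LT, 13 of 14 lower and 0 of 11 higher were called in every alternative. For LT against vehicle it was 11 of 20 lower, and for LCL161 plus LT against vehicle 19 of 21 lower and 0 of 8 higher. No called collagen gene changed sign. Scaling by total counts moved the median log2 fold change of all genes to -0.23, -0.12 and -0.26.

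The labels do not say that a replicate number marks a shared mouse, culture or day, so the main values use no block. Deviations of same-numbered libraries correlated at 0.169 for vehicle and LT, 0.0874 for vehicle and LCL161 plus LT, and 0.156 for LT and LCL161 plus LT. With the replicate block, 19 genes were lower and 0 higher in LT against vehicle, 14 lower and 12 higher in LCL161 plus LT against LT, and 20 lower and 8 higher in LCL161 plus LT against vehicle, 6 of those 8 being among the 8 called without it. The block ended the calls of Col6a1 in LT against vehicle and of Col9a3, Col19a1 and Col10a1 in LCL161 plus LT against vehicle. Many genes under 3 CPM were called, but with few reads a p that misses the threshold leaves a wide range of changes possible.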
